A study of Homo sapiens with 4 samples.

Results

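The genes examined here encode the proteins that make microRNAs and the Argonaute proteins that carry them. They were chosen by name: the 10 genes DROSHA, DGCR8, XPO5, DICER1, TARBP2, PRKRA, AGO1, AGO2, AGO3 and AGO4, out of 60671 genes in the deposited table. All 10 had a row in the table and a value above 0 in every library. RNA was measured in 4 libraries of H9, an established human embryonic stem cell line grown in mTeSR medium without further treatment, after transcripts with a poly(A) tail had been selected. The control group was 2 libraries of H9 with the genotype label control, and the labels do not say whether these were mock-edited clones or unedited cells. The other group, called KO+OE here, was 2 libraries of H9 in which the CFIm25 gene had been edited with CRISPR/Cas9 and a 3Flag-tagged CFIm25 had been added back with a lentivirus. The edit is named both a knockout and a knockdown in the labels, and as the study describes it a small amount of a protein without part of its N-terminus is left. The study put the protein back in a single clone, so effects of the clone, of the edit and of the re-expression cannot be told apart. Edited cells without the added protein were not analysed here, and nothing in the labels says that libraries of a group came from separate cultures, so the p-values measure only the spread between these libraries, which may be technical.

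MicroRNAs are short RNAs that guide Argonaute proteins to messenger RNAs with a matching sequence, which are then repressed or degraded. In the nucleus, Drosha and its partner DGCR8, together called the Microprocessor, cut a hairpin out of a long primary transcript. Exportin-5 carries the hairpin to the cytoplasm, where Dicer, helped by the RNA-binding proteins TRBP and PACT, removes the loop, and 1 strand of the duplex is loaded into an Argonaute protein. CFIm25, encoded by NUDT21, belongs to cleavage factor I, a complex that binds UGUA upstream of the site where a new messenger RNA is cut and polyadenylated, and DICER1 is among the genes known for poly(A) sites that depend on it in other cells. By sequencing the ends of messenger RNAs, the study saw no apparent change in the poly(A) sites of DICER1 in CFIm25-mutant H9 cells. Those cells lacked the added protein. The choice of poly(A) sites was not measured in the libraries used here. The comparison therefore asked how far the RNA of this machinery in the re-expressing line stood from that in control cells.

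The products of the pathway are shown first. The set was chosen after values had been seen, because these microRNAs lie in host transcripts that were tested, or are the classic target of a regulator described below. Sequences and positions are from RefSeq on GRCh38.p14, written 5′ to 3′, and the capitals mark the seed, bases 2 to 8, which pairs with targets. The microRNAs of the miR-302 cluster, known for their abundance in human embryonic stem cells, lie inside MIR302CHG at chr4:112646720-112650051, and all 4 miR-302 sequences shown share 1 seed.
hsa-miR-302a-3p: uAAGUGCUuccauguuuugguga
hsa-miR-302b-3p: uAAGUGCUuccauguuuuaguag
hsa-miR-302c-3p: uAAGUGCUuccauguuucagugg
hsa-miR-302d-3p: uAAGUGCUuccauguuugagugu
hsa-miR-367-3p: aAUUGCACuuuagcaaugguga

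The second set lies inside MCM7, a gene for a subunit of the replicative helicase, at chr7:100092728-100101397. The seed of miR-25-3p is that of miR-367-3p. The seed of miR-106b-5p and miR-93-5p is that of the miR-302 group moved by 1 base.
hsa-miR-25-3p: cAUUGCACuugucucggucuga
hsa-miR-106b-5p: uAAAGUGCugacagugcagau
hsa-miR-93-5p: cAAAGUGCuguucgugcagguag

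The third set holds let-7a-5p, whose precursor is blocked by the RNA-binding protein LIN28, and miR-15b-5p and miR-16-5p, which share a seed and lie inside SMC4, a condensin gene, at chr3:160399650-160434953.
hsa-let-7a-5p: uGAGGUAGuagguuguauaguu
hsa-miR-15b-5p: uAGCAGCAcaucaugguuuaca
hsa-miR-16-5p: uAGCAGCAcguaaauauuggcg

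The MIR302A hairpin, chr4:112648183-112648251 on the minus strand, shows what the proteins act on. Its 5p and 3p strands, of 23 bases each, are in capitals. Drosha cuts at the open base of such a hairpin, and Dicer cuts at the loop between the strands.
MIR302A hairpin: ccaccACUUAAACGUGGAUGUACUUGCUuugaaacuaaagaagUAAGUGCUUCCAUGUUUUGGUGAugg

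The libraries do not measure these products. Selection of poly(A) RNA and fragments of ordinary length leave out hairpins and mature microRNAs, and of 1860 hairpin genes listed in the table only 10 had a value above 0 in any library. MIR302A, MIR302B, MIR302C, MIR302D and MIR367 were listed at 0 in all 4 libraries. What follows concerns the RNA of the machinery and of the host transcripts.

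The values are TPM, the share of transcripts from each gene scaled by transcript length to a common total, so that levels can be compared between genes. Each library summed to between 986853 and 987078 TPM and held 12179 to 12332 genes at 1 TPM or more. TPM keeps no read counts, so sequencing depth is unknown and precision comes from the replicates. The median absolute log2 difference between control replicates was 0.189 for genes of 1 to 5 TPM, 0.102 for genes of 5 to 50 TPM and 0.044 above 50 TPM. Differences were tested with limma on log2(TPM + 1) over the 12319 genes that averaged at least 1 TPM, and this scale understates the change of low genes. The edited gene itself, NUDT21, had 160.67 and 152.20 TPM in control against 162.09 and 156.60 TPM in KO+OE (log2 fold change 0.03, 95% confidence interval -0.09 to 0.14, adjusted p = 0.980 from limma). Its RNA level does not tell the groups apart, nor does it show which version of the transcript was counted. All 7 stem cell markers were tested and summed to 3290 and 3299 TPM in control and 3264 and 3283 TPM in KO+OE. Of the 14 markers of the germ layers, 10 lay under 1 TPM, 1 of them at 0 in every library. The 14 summed to 100.9 and 105 TPM in control and to 98.5 and 99.8 TPM in KO+OE. Single genes dominated both sums, with POU5F1 at 2163.82 to 2212.38 TPM and NES at 79.59 to 82.77 TPM. Of the 4 germ layer markers tested, OTX2 was lower (unadjusted p = 0.024 from limma) and TBX6 higher in both KO+OE libraries. The other germ layer markers tested overlapped. Of the 7 stem cell markers, LIN28A was higher and DNMT3B lower in both KO+OE libraries, and the rest overlapped. Over all genes tested the groups did not overlap in 34.1%. No marker passed an adjusted p of 0.05. The part of these markers in the results was not tested.

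No member was called. Of the 10, 8 averaged at least 1 TPM and were tested, and 0 passed an adjusted p of 0.05, against 0.00812% of all genes tested. At an unadjusted p of 0.05 the count was also 0, against 5.33% of all genes. The fold changes of the 8 tested members ran from -0.13 for XPO5 to 0.20 for AGO2 on the log2 scale, with 5 above 0 and 3 below, and a median of 0.0097 beside -0.012 over all genes tested. This median depended on single control libraries, at 0.12 when control replicate 1 was left out and -0.069 when replicate 2 was. On the TPM + 1 scale the 95% confidence interval of all 8 lay within 2-fold in either direction. The same held for 92.6% of all genes tested. In 4 of the 8 tested members, or 50%, the groups did not overlap, with KO+OE above control in 3 and below it in 1. Over all genes tested the groups did not overlap in 34.1%, with KO+OE above in 14.5% and below in 19.6%.

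**Figure D1:**
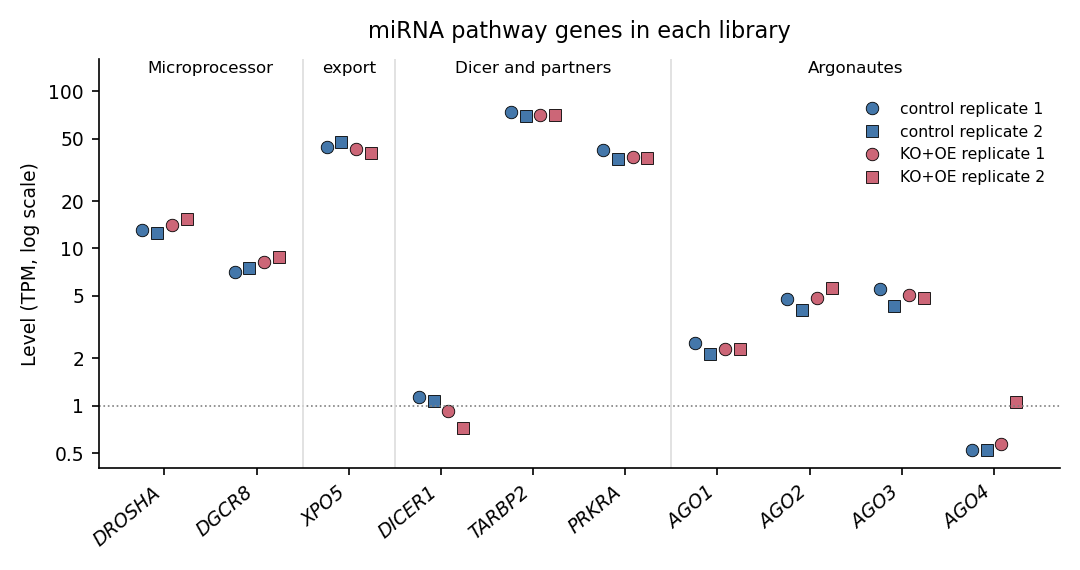
Level of each gene in each library, in TPM on a log axis, grouped by role; each point is 1 library, with the control libraries in blue and the KO+OE libraries in red, and the dotted line marks 1 TPM. Levels span from 0.52 TPM for AGO4 to 73.72 TPM for TARBP2, a wider span than that between the libraries of any 1 gene.

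The Microprocessor was measured through both of its core subunits. DROSHA (ENSG00000113360, chr5:31400494-31532093), the nuclease, had 13.10 and 12.49 TPM in control against 14.09 and 15.31 TPM in KO+OE. Both KO+OE libraries lay above both controls. The mean was 12.8 ± 0.431 TPM for control against 14.7 ± 0.863 TPM for KO+OE (SD, n = 2 each), a difference of 14.9%, and the log2 fold change of 0.19 had a 95% confidence interval of -0.03 to 0.40 and an adjusted p = 0.931 from limma. In bulk RNA, a lower or higher level per cell and a smaller or larger share of cells of a type cannot be told apart, here or for the genes that follow.

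DGCR8 (ENSG00000128191, chr22:20080241-20111872), the subunit that binds the hairpin and holds Drosha in place, showed a similar picture. It had 7.10 and 7.5 TPM in control against 8.23 and 8.76 TPM in KO+OE. Again no control library reached the lower KO+OE library. The means, 7.30 ± 0.283 and 8.49 ± 0.375 TPM (SD, n = 2 each), differed by 16.4%, with a log2 fold change of 0.19 (95% confidence interval -0.05 to 0.44, adjusted p = 0.931 from limma). The messenger RNA of DGCR8 holds hairpins of its own that Drosha can cut, and the rows of both, MIR3618 and MIR1306, were listed at 0 in all 4 libraries.

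The ratio of DROSHA to DGCR8 was 1.84 and 1.67 in control and 1.71 and 1.75 in KO+OE. The ratios of the KO+OE libraries lay between those of the controls. The sum of both genes was 20.2 and 19.99 TPM in control and 22.3 and 24.1 TPM in KO+OE. As each gene was higher in both KO+OE libraries, the sum could not overlap between the groups and is not a separate observation.

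XPO5 (ENSG00000124571, chr6:43522334-43576038), which encodes the export receptor, had 44.20 and 47.48 TPM in control against 43.13 and 40.35 TPM in KO+OE. It was the tested member whose KO+OE libraries both lay below the controls. The gap between the nearest libraries, control replicate 1 and KO+OE replicate 1, was smaller than the gap between the replicates of either group. The means were 45.8 ± 2.32 and 41.7 ± 1.97 TPM (SD, n = 2 each), and the log2 fold change was -0.13 (95% confidence interval -0.30 to 0.03, adjusted p = 0.931 from limma). Omitting single libraries moved it between -0.18, without control replicate 1, and -0.082, without control replicate 2. The ratio of XPO5 to DROSHA was 3.37 and 3.8 in control and 3.06 and 2.64 in KO+OE, without overlap. This followed from XPO5 being lower and DROSHA higher in both KO+OE libraries, so it is not a separate observation. Exons of XPO5 and of POLR1C, on the opposite strand, overlap by up to 129 nt, and whether reads were counted by strand is not given in the sources used here. POLR1C stood at 27.11 to 28.23 TPM across the 4 libraries.

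DICER1 (ENSG00000100697, chr14:95086228-95158010) encodes the nuclease that frees the mature duplex. It had 1.14 and 1.07 TPM in control against 0.92 and 0.72 TPM in KO+OE. Both KO+OE libraries lay below both controls, and KO+OE replicate 2 was the lowest. The means were 1.10 ± 0.050 and 0.82 ± 0.141 TPM (SD, n = 2 each), a difference of -25.8% relative to control and the widest such gap among members with the lower mean in KO+OE. With a mean of 0.963 TPM over the 4 libraries DICER1 lay just under the filter, and without the filter the log2 fold change was -0.21 (95% confidence interval -0.66 to 0.23, adjusted p = 0.873 from limma over 26942 genes). This value was -0.13 when KO+OE replicate 2 was left out and -0.29 when replicate 1 was. The interval reaches from 0.634-fold to 1.18-fold on the TPM + 1 scale. For a gene near 1 TPM this is a wider range in level, above all on the lower side. Differences within that range could not be told from none. These gene totals do not separate transcripts that end at different poly(A) sites.

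Whether the neighbour of DICER1 on the opposite strand bears on its low value was not tested. DICER1-AS1 (chr14:95157688-95179933), an antisense RNA whose exons overlap those of DICER1 by up to 80 nt, was looked at after the values had been seen. It had 7.97 and 7.61 TPM in control against 4.35 and 6.45 TPM in KO+OE, so it stood higher than DICER1 in every library and, like DICER1, lower in both KO+OE libraries. Its log2 fold change was -0.48 (95% confidence interval -0.94 to -0.01, adjusted p = 0.928 from limma), which did not pass. If counting ignored strand, reads in the shared stretch cannot be told apart.

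TARBP2 (ENSG00000139546, chr12:53500923-53506431), the gene for TRBP, was the most abundant member. It had 73.72 and 69.41 TPM in control against 70.74 and 70.38 TPM in KO+OE, so that both KO+OE values fell between the controls. The log2 fold change of -0.019 had a 95% confidence interval of -0.15 to 0.11 (adjusted p = 0.988 from limma), the narrowest among the tested members.

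PRKRA (ENSG00000180228, chr2:178431414-178451175), the gene for PACT, had 42.02 and 37.20 TPM in control against 38.11 and 37.85 TPM in KO+OE. Its KO+OE values also fell between the controls. The log2 fold change was -0.057 (95% confidence interval -0.24 to 0.13, adjusted p = 0.968 from limma). CHROMR, an RNA of the opposite strand whose exons overlap those of PRKRA by up to 963 nt, stood at 0.54 to 0.98 TPM. The level of TARBP2 was 1.75 to 1.87 times that of PRKRA across the 4 libraries.

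The TPM values of the Dicer partners were thus far above those of DICER1. Their transcripts differ from that of DICER1 in length and GC content, and whether this bears on the ratios was not tested. The ratio of TARBP2 to DICER1 was 64.7 and 64.9 in control and 76.9 and 97.7 in KO+OE. That of PRKRA to DICER1 was 36.9 and 34.8 in control and 41.4 and 52.6 in KO+OE, and that of DROSHA to DICER1 was 11.5 and 11.7 in control and 15.3 and 21.3 in KO+OE. In each ratio both KO+OE libraries lay above both controls. All of these ratios share the low DICER1 value as their denominator, so they are not separate observations, and with 2 libraries against 2 an exact two-sided permutation test cannot go below p = 0.3333.

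**Figure D2:**
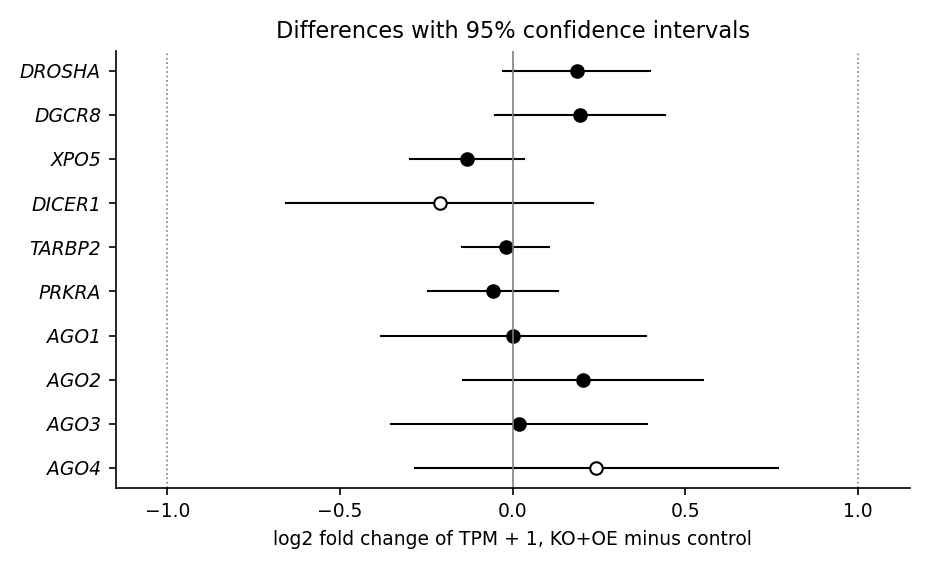
Log2 fold change of each gene, KO+OE minus control, on the log2(TPM + 1) scale, with 95% confidence intervals from limma; filled points are the 8 tested genes and open points, DICER1 and AGO4, come from the fit without a filter. Every interval crosses 0 and lies between the dotted lines at 2-fold in either direction on that scale. For DICER1 and AGO4, under 1 TPM on average, 2-fold of TPM + 1 is more than 2-fold in level.

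The Argonaute genes were all detected. AGO1, AGO3 and AGO4 lie next to each other on chromosome 1, at chr1:35869761-35930532, chr1:35930718-36072500 and chr1:35807636-35857890, and AGO2 lies on chromosome 8. AGO2 (ENSG00000123908) is known as the Argonaute that can cut a fully matched target. It had 4.75 and 4.08 TPM in control against 4.85 and 5.63 TPM in KO+OE. The KO+OE libraries lay above the controls, but control replicate 1 and KO+OE replicate 1 were close. The means were 4.42 ± 0.474 and 5.24 ± 0.551 TPM (SD, n = 2 each), a difference of 18.7%, with a log2 fold change of 0.20 (95% confidence interval -0.14 to 0.55, adjusted p = 0.937 from limma). Leaving out 1 library at a time moved this value, to 0.11 when KO+OE replicate 2 was omitted and to 0.29 when replicate 1 was.

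AGO1 (ENSG00000092847), which represses targets mainly without cutting them, had 2.49 and 2.13 TPM in control against 2.31 TPM in both KO+OE libraries. The KO+OE value lay midway between the controls. Its log2 fold change was 0.0021 (95% confidence interval -0.38 to 0.39, adjusted p = 0.997 from limma).

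AGO3 (ENSG00000126070) had 5.54 and 4.31 TPM in control against 5.06 and 4.87 TPM in KO+OE, again with the KO+OE libraries between the controls. Its log2 fold change was 0.017 (95% confidence interval -0.35 to 0.39, adjusted p = 0.991 from limma). The sign of both values rested on single libraries, as AGO3 went to -0.13 and AGO1 to -0.076 without control replicate 2.

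AGO4 (ENSG00000134698) was the lowest member, with 0.52 TPM in both controls against 0.57 and 1.06 TPM in KO+OE. A single library, KO+OE replicate 2, stood apart from the other 3. Without the filter the log2 fold change was 0.24 (95% confidence interval -0.28 to 0.77, adjusted p = 0.873 from limma). It was 0.047 when KO+OE replicate 2 was left out and 0.44 when replicate 1 was, so that library decided its size. With DICER1 and AGO4 included, the groups did not overlap in 6 of the 10 members, against 27.8% of all 26942 genes fitted without the filter. KO+OE was above control in 4 of them and below it in 2, against 12.4% and 15.4% of all those genes, and 0 of the 10 had an unadjusted p under 0.05 in that fit, against 4.88%. The genes fitted without the filter include some at 0 in single libraries, where shared zeros count as overlap, unlike the members. Over genes that averaged at least 1 TPM the groups did not overlap in 34.1%, with KO+OE above in 14.5% and below in 19.6%.

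The make-up of the family was then examined as each gene's share of the summed Argonaute TPM. The sum was 13.3 and 11.0 TPM in control and 12.8 and 13.9 TPM in KO+OE. AGO2 made up 35.7% and 37% of it in control and 37.9% and 40.6% in KO+OE, and AGO3 made up 41.7% and 39.0% in control and 39.6% and 35.1% in KO+OE. The share of AGO2 was higher in both KO+OE libraries, whereas the shares of AGO3 overlapped. AGO3 was the larger of the pair in every library but KO+OE replicate 2. AGO1 made up 16.7% to 19.3%, lower in both KO+OE libraries, and AGO4 made up 3.91% to 7.64%, with the highest value in KO+OE replicate 2. The shares of a library add up to the whole, and the TPM of AGO2 was itself higher in both KO+OE libraries. The shares are therefore not separate observations. No depth is known, so no counting interval was computed for these shares.

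**Figure D3:**
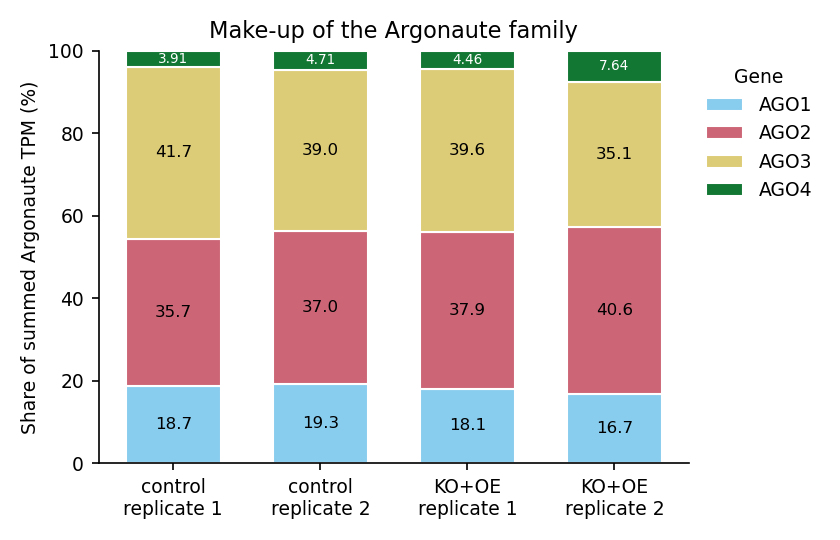
Share of each Argonaute gene in the summed TPM of the 4 genes, in percent, 1 stacked bar per library, with the share printed in each segment. AGO2 goes from 35.7% in control replicate 1 to 40.6% in KO+OE replicate 2, where AGO4 has its largest share, 7.64%.

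Ordered by mean level over the 4 libraries, the members were TARBP2 (71.1 TPM), XPO5 (43.8 TPM), PRKRA (38.8 TPM), DROSHA (13.7 TPM), DGCR8 (7.90 TPM), AGO3 (4.94 TPM), AGO2 (4.83 TPM), AGO1 (2.31 TPM), DICER1 (0.963 TPM) and AGO4 (0.667 TPM). The ranges of neighbours overlapped for XPO5 and PRKRA, for AGO3 and AGO2, and for DICER1 and AGO4. Within each library XPO5 was above PRKRA. The order of AGO3 and AGO2, and that of DICER1 and AGO4, was reversed in KO+OE replicate 2, so it is not settled. All other neighbours were apart in all 4 libraries. Among the 26942 genes with a value above 0, TARBP2 lay at percentiles 94.4 to 94.7, DROSHA at 81.4 to 83.7, AGO2 at 70.2 to 73.9 and DICER1 at 50.9 to 55.8.

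The members with the shortest transcripts were among the highest. The canonical transcripts of TARBP2 and PRKRA have 1510 and 1770 nt, whereas those of DICER1, AGO1, AGO2 and AGO3 have 10384, 13712, 14595 and 19660 nt. Across the 10 members Spearman's rho between mean TPM and transcript length was -0.697, and that between mean TPM and GC content was 0.503. Across 17056 protein-coding genes with a value above 0 the same correlations were -0.179 and 0.290. These are descriptions across genes measured in the same libraries, and genes are not independent replicates. Levels set beside genes of like base composition differ between members. DICER1, at 40.2% GC, lay at the median of protein-coding genes within 2 percentage points of GC, 0.945 TPM. PRKRA, at 42.2% GC, lay at 38.8 TPM against a median of 1.29 TPM. AGO4, at 45.05% GC, lay under the median of its like, 1.94 TPM. Whether length or base composition bears on how these levels were measured was not tested.

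**Figure D4:**
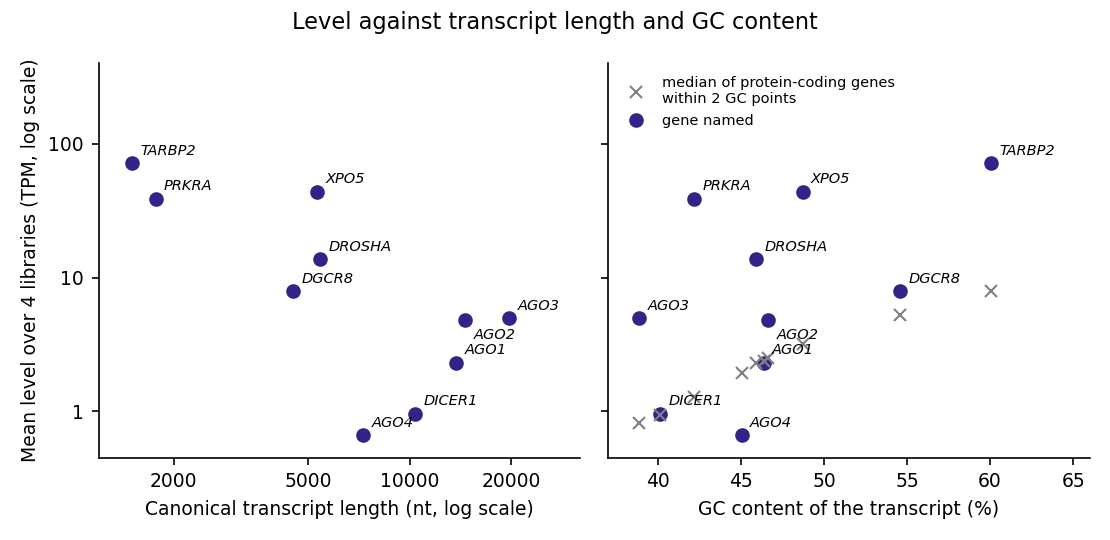
Mean level over the 4 libraries, in TPM on a log axis, against the length of the canonical transcript in nt on a log axis (left) and its GC content in percent (right); each blue point is 1 of the 10 genes and each grey cross the median of protein-coding genes within 2 GC points of it. TARBP2 and PRKRA are short and high, AGO3 is long with 4.94 TPM, and DICER1 sits on the median of its like at 0.945 TPM.

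Because CFIm25 binds UGUA, the last 100 nt of each canonical transcript were searched for these letters on the transcript strand. DICER1 held 2 matches, DROSHA, XPO5 and AGO2 held 1 each, and the other 6 held none, so 4 of 10 members had a match. Among the 8 tested members it was 3, against 49.8% of all genes tested. A match is only a description of the letters, and transcripts ending at other poly(A) sites were not searched.

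The other genes of the pathway were taken from a list of 148, none of which is a member. Of these, 79 were tested and 69 lay under 1 TPM, 24 of them at 0 in all libraries. None passed an adjusted p of 0.05, with 40 log2 fold changes above 0 and 39 below and a median of 0.0042 beside -0.012 over all genes tested. At an unadjusted p of 0.05 there were 7, of which 2 were higher and 5 lower in KO+OE, against 5.33% of all genes tested. The smallest adjusted p was 0.556 from limma.

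The smallest p of the list belonged to a gene of the silencing machinery that acts after Argonaute has bound. EDC4, a scaffold of messenger RNA decapping, had 21.27 and 23.26 TPM in control against 31.25 and 30.96 TPM in KO+OE. The gap between the groups was several times that between replicates, and the log2 fold change was 0.47 (95% confidence interval 0.29 to 0.64, adjusted p = 0.556 from limma). PAN2, the catalytic subunit of a deadenylase that Argonaute complexes recruit, had 15.15 and 19.17 TPM in control against 11.46 and 10.15 TPM in KO+OE. The log2 fold change was -0.61 (95% confidence interval -0.96 to -0.27, adjusted p = 0.925 from limma), and it was -0.45 when control replicate 2 was left out and -0.77 when replicate 1 was. Of this sub-list, 15 of 19 genes were tested and the median log2 fold change was 0.094.

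The GW182 proteins link Argonaute to those enzymes, and their genes were low. TNRC6A had 1.74 and 2.27 TPM in control against 1.56 and 1.68 TPM in KO+OE, and TNRC6C with 0.82 and 1.12 TPM in control against 1.42 and 1.06 TPM in KO+OE. TNRC6B, at 0.51 to 0.60 TPM, was under the filter. Their log2 fold changes, -0.19 for TNRC6A and 0.18 for TNRC6C, had adjusted p-values of 0.950 and 0.960 from limma. With 1 library left out they ran from -0.32 (control replicate 1) to -0.065 (control replicate 2) for TNRC6A and from 0.069 (KO+OE replicate 1) to 0.30 (KO+OE replicate 2) for TNRC6C.

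All 17 Microprocessor cofactors were tested, with a median log2 fold change of -0.036, 6 above 0 and 11 below. SRSF3, a splicing factor that binds a motif in many primary microRNAs, had 97.52 and 97.64 TPM in control against 88.86 and 83.25 TPM in KO+OE (log2 fold change -0.18, adjusted p = 0.928 from limma). SAFB2, which helps Drosha with poor hairpins in clusters, had 9.57 and 9.24 TPM in control against 7.43 and 7.42 TPM in KO+OE (log2 fold change -0.30, adjusted p = 0.928 from limma). Both were named for an unadjusted p under 0.05 and were lower in both KO+OE libraries, without passing. Of the 17 cofactors, KO+OE lay above control without overlap in 3 and below it in 4. Together these made 41.2%, against 34.1% of all genes tested. The cofactor with the highest fold change was KHSRP, at 0.08 on the log2 scale (adjusted p = 0.942 from limma), which was 0.016 without KO+OE replicate 1.

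Of the 4 export genes, all tested, XPO1, the general nuclear export receptor, had 9.67 and 9.64 TPM in control against 8.60 and 8.32 TPM in KO+OE. Both KO+OE libraries lay under the controls, without passing (log2 fold change -0.17, adjusted p = 0.931 from limma). The groups did not overlap in any of the 4, with KO+OE higher in 2 and lower in 2. Over all genes tested the groups did not overlap in 34.1%. NUP153, a nuclear pore protein, had the highest fold change of this sub-list, 0.10 on the log2 scale (adjusted p = 0.9749 from limma).

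The 10 RISC loading genes, mostly chaperones that open Argonaute for the duplex, were all tested, with 8 fold changes above 0 and a median of 0.029 on the log2 scale. HSPA4, a chaperone of the HSP110 type, had 12.26 and 11.94 TPM in control against 14.01 and 15.66 TPM in KO+OE (log2 fold change 0.27, adjusted p = 0.928 from limma). TSNAX and TSN encode the nuclease C3PO, which removes the passenger strand. TSNAX had 0.72 and 0.97 TPM in control against 2.09 and 0.71 TPM in KO+OE, so its log2 fold change of 0.32 came from KO+OE replicate 1 and was -0.11 without it. TSN was at 12.06 to 13.49 TPM, with a log2 fold change of -0.064.

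**Figure D5:**
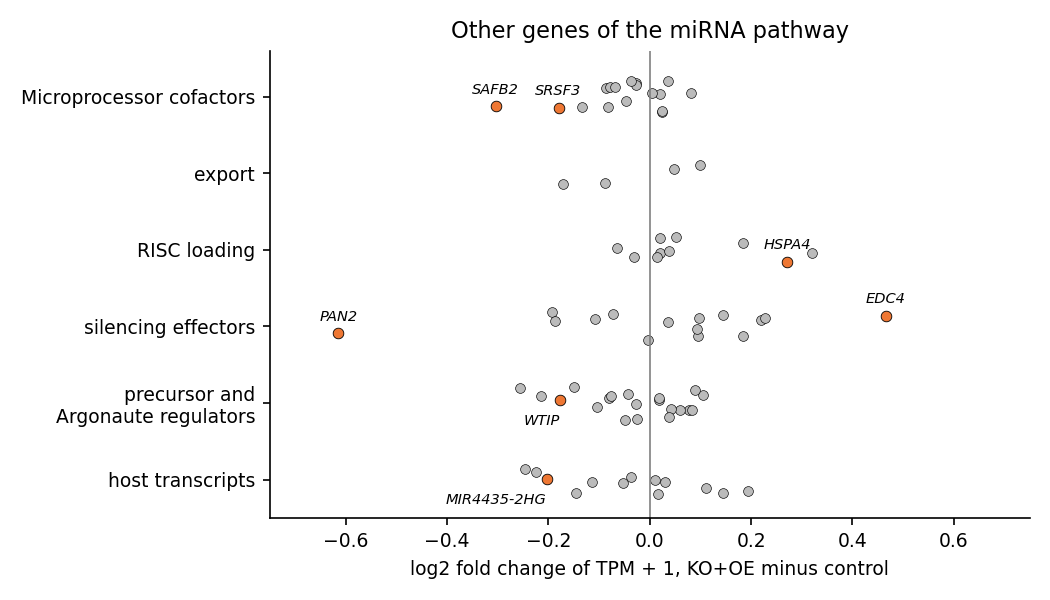
Log2 fold change on the log2(TPM + 1) scale, KO+OE minus control, of the 79 tested genes of the wider list, 1 point per gene, in rows by role; height within a row has no meaning. Orange points are the 7 genes at an unadjusted p under 0.05, from PAN2 at -0.61 to EDC4 at 0.47, and none passed after adjustment.

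The regulators of precursors and of Argonaute, of which 20 of 22 were tested, had a median log2 fold change of -0.026. LIN28A, which blocks maturation of let-7 in stem cells, had 517.40 and 520.54 TPM in control against 527.87 and 523.49 TPM in KO+OE. All 4 libraries lay within a narrow band (log2 fold change 0.02, 95% confidence interval -0.05 to 0.09, adjusted p = 0.974 from limma). Its relative LIN28B was listed at 0.88 to 1.05 TPM, just under the filter.

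Terminal uridylyl transferases tag let-7 precursors held by LIN28 for decay. TUT4, 1 of them, had 1.24 and 0.83 TPM in control against 1.89 and 0.64 TPM in KO+OE. The log2 fold change of 0.10 was -0.30 when KO+OE replicate 1 was left out and 0.51 when replicate 2 was. TENT2, which adds adenosine to the end of some microRNAs, had 1.51 and 1.02 TPM in control against 0.75 and 1.03 TPM in KO+OE (log2 fold change -0.26, adjusted p = 0.948 from limma). This value was -0.10 when control replicate 1 was left out and -0.41 when control replicate 2 was. WTIP, of a protein family that joins Argonaute to the cap, had 25.70 and 27.10 TPM in control against 23.04 and 23.38 TPM in KO+OE (log2 fold change -0.18, adjusted p = 0.928 from limma). The PIWI clade, relatives of the Argonautes that act in the germ line, was represented by 4 genes, none of which exceeded 0.59 TPM in any library.

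Host transcripts of microRNAs were taken by name, as every gene named MIR and ending in HG, with MCM7, SMC4 and DLEU2 added. Of these 72, 13 were tested, with 6 log2 fold changes above 0 and 7 below. In the reference used, which holds no miR-124-3p, no hairpin was found inside MIR124-1HG or MIR3936HG. MIR302CHG, host of the miR-302 sequences shown above, had 377.95 and 332.57 TPM in control against 406.25 and 322.31 TPM in KO+OE. The KO+OE libraries enclosed the controls, and the log2 fold change was 0.03 (95% confidence interval -0.29 to 0.35, adjusted p = 0.990 from limma). MCM7, which holds miR-25, miR-93 and miR-106b, stood at 232.38 to 244.05 TPM across the 4 libraries, with a log2 fold change of 0.016 (95% confidence interval -0.08 to 0.12, adjusted p = 0.988 from limma). SMC4, which holds miR-15b and a copy of miR-16, was listed at 1.5 to 3.01 TPM.

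The other host transcripts named stood at lower levels than MIR302CHG and MCM7. MIR4435-2HG had 26.56 and 25.89 TPM in control against 23.37 and 21.93 TPM in KO+OE, the 1 tested host at an unadjusted p under 0.05 (log2 fold change -0.20, adjusted p = 0.928 from limma). Among the 13 tested hosts, MIR124-1HG and MIR3659HG had the lowest and the highest fold changes, -0.25 and 0.19 on the log2 scale, with adjusted p-values of 0.937 and 0.963 from limma. Both rested on control replicate 2, and leaving it out gave -0.081 and -0.089. MIR17HG, host of the miR-17-92 cluster, had 0.35 and 0.30 TPM in control against 0.65 and 0.47 TPM in KO+OE. Both KO+OE values were the higher, as for 12.4% of all genes fitted without the filter, at a level too low to be tested with the rest. In the fit without the filter its log2 fold change was 0.23 (95% confidence interval -0.09 to 0.56, adjusted p = 0.873 from limma). A host transcript gives the level of the spliced, polyadenylated RNA that is left after or without cutting by Drosha, and the mature microRNAs were not measured.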

How the data were processed

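Polyadenylated RNA of H9 cells was sequenced in 4 libraries, 2 per group, with groups and replicate numbers taken from sample titles. The submitters' processing notes name HISAT2, featureCounts, Subread, DESeq2 and hg38, with no roles or versions; the strand setting is not given in the sources used here. The authors deposited 1 table of normalized values whose header names no unit. The values were read as TPM because each deposited column holds decimals and sums to nearly the same total. TPM keeps no depth, so no counting error could be computed and no count test was used. The table held 0 other columns of single libraries.

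Genes averaging at least 1 TPM over the libraries were fitted as log2(TPM + 1) with limma 3.58.1 (lmFit, eBayes with a mean-dependent prior, two-sided) under R 4.3.3, the group being its sole term. Adjustment followed Benjamini and Hochberg across the 12319 genes, and calls were made at an adjusted p under 0.05. DICER1 and AGO4 lay under the filter and were taken from a fit over 26942 genes. The step was tested on simulated data. Other work used Python 3.11.15, pandas 2.3.3, numpy 2.4.6, scipy 1.17.1 and matplotlib 3.10.9.

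The members and the gene lists were chosen with earlier results of these data known. Named are NUDT21, the members, the GW182 and LIN28 genes, MIR302CHG, MIR17HG, the hairpins inside DGCR8 and, of each sub-list, the highest and lowest fold change and every gene at an unadjusted p under 0.05. DICER1-AS1, POLR1C, CHROMR, MCM7, SMC4, the hairpins of the miR-302 cluster, the sequences, and the searches of length, GC content and UGUA were chosen after values had been seen. Positions and sequences are from RefSeq GRCh38.p14, where all 10 members were found. Transcript length, GC content, exon overlap and UGUA are from GENCODE annotation on GRCh37, of which no coordinates are given.

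The alternatives were pseudocounts of 0.1 and 5, no filter, a mean of at least 5 TPM, median-ratio rescaling, quantile normalization, a constant prior, a block for the replicate number, and the omission of each library in turn. For DICER1 and AGO4 these were repeated without the filter, which was decided after seeing the data. When 1 library was left out, the lone library was assumed to vary like the other group.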

Additional observations from a re-analysis of the deposited data

How the results depend on the processing

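No member and no gene of the wider list was called under any alternative, and the lowest adjusted p of a member in any of them was 0.410 from limma, for AGO4. Of 109 alternatives for single members, 103 kept direction and side of the threshold and 6 changed direction; for 20 other pathway genes 226 of 233 did and 7 changed direction. TARBP2 went to 0.011 with quantile normalization and to 0.023 without control replicate 1, and PRKRA to 0.029 without that library. AGO3 went to -0.13 without control replicate 2 and to -0.0056 without KO+OE replicate 1, and AGO1 to -0.076 without control replicate 2. When 1 library at a time was left out, log2 fold changes ran from -0.062 to 0.023 for TARBP2, -0.14 to 0.029 for PRKRA, -0.13 to 0.17 for AGO3, -0.076 to 0.081 for AGO1, -0.012 to 0.066 for NUDT21, -0.30 to 0.51 for TUT4, -0.14 to 0.20 for MIR302CHG, -0.089 to 0.47 for MIR3659HG, -0.13 to 0.0031 for TSN and -0.11 to 0.75 for TSNAX. The members' median ran from -0.069 to 0.12 and that of the wider list from -0.036 to 0.014.

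Over all genes the count at an adjusted p under 0.05 from limma went from 1 to 0 with a pseudocount of 0.1, a pseudocount of 5, no filter, a mean of at least 5 TPM and quantile normalization, where 670, 634, 1314, 412 and 646 genes had an unadjusted p under 0.05; the cause was not tested. Leaving out 1 library gave 0 to 1. Replicate numbers did not pair the libraries (correlation of deviations -0.049), and with the replicate block the count was 0, with 673 at an unadjusted p under 0.05. With 2 libraries per group and unknown depth, differences in members near 1 TPM were the least detectable.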

Other observations

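Some values of the table stood outside the comparisons above and were singled out after they had been seen. TUT7, the partner of TUT4 in tagging let-7 precursors, had 0.45 and 0.50 TPM in control against 0.93 and 0.90 TPM in KO+OE, under the filter on low values. KO+OE was above control without overlap, as it was for 12.4% of all genes fitted without the filter, and in that fit the log2 fold change was 0.38 (95% confidence interval 0.02 to 0.74, adjusted p = 0.873 from limma). XRN1, the exonuclease that degrades decapped messenger RNA, had 0.09 and 1.01 TPM in control against 0.66 and 1.53 TPM in KO+OE, so its replicates differed more than its groups. Among hairpin genes, MIR671 was listed at 33.34 TPM and MIR5572 at 36.71 TPM in control replicate 1 and both at 0 in the other 3 libraries, and MIR548I1 was listed at 10.81 TPM in KO+OE replicate 1 and at 0 in the other 3. MIR1297 had 1.89 to 2.38 TPM in all 4 libraries. Such values in poly(A) RNA do not measure mature microRNAs.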
